A study of Mus musculus with 36 samples.

Results

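Oxidative phosphorylation (OXPHOS) is carried out by 5 protein complexes of the mitochondrial inner membrane, and this account concerns the nuclear genes that encode them in C2C12 myotubes. The genes were taken by name from the deposited count table: protein-coding rows whose symbol starts with Nduf followed by a, b, c, s or v, with Uqcr, with Cox4 to Cox8 or with Atp5, plus Sdha, Sdhb, Sdhc and Sdhd, provided that they reached a CPM (count scaled to a common library total) of 1 in at least 12 of 36 libraries. Of 55416 rows, 13995 passed that filter on level and 90 of these carried an OXPHOS name. The name pattern matched 114 rows, of which 17 were not protein-coding and 7 were protein-coding but under the filter. The 7 were Cox4i2, Cox6b2, Cox7b2, Cox8c, Ndufa4l2, Ndufb11b and a second gene model of Atp5o with 0 counts.

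C2C12 is an established mouse myoblast line whose cells fuse into multinucleated myotubes when serum is reduced. Day 4 myotubes carried an antisense locked nucleic acid (LNA), transfected on the day before, that was either a negative control (control) or directed at the long non-coding RNA Tug1 (Tug1 KD). Each was left at Rest with unconnected electrodes, or given 3 h of electrical pulse stimulation (EPS), an in vitro stand-in for contraction, and harvested at once (EPS 0h) or 3 h later (EPS 3h). The 6 groups held 6 libraries each, made from polyadenylated RNA of a single cell line, so neither donors nor animals were replicated. The study's methods describe wells from 2 independent experiments without tying them to the replicate numbers, so p-values here measure the spread between these libraries.

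The 36 libraries held 17005079 to 24181167 counts. At Rest, Tug1 itself averaged 48.4 ± 6.78 RPM with the control LNA and 27.3 ± 3.69 RPM with the Tug1 LNA (SD, n = 6; edgeR adjusted p = 0.000915) and was also lower at EPS 0h (adjusted p = 0.0178) and EPS 3h (adjusted p = 0.0414). The libraries of control and Tug1 KD did not overlap in Tug1 at Rest but did after EPS. RPM denotes the CPM after scaling by trimmed means (TMM). All 12 myotube markers passed the filter, with a summed level of 14500 to 19190 RPM over the Rest control libraries. The 7 markers of cycling or undifferentiated myoblasts summed to 151.1 to 188.2 RPM there, and of 5 fibroblast or adipocyte markers Adipoq and Plin1 did not pass.

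Complex I (NADH dehydrogenase) passes electrons from NADH to ubiquinone, and complex II (succinate dehydrogenase) does so from succinate. Complex III hands the electrons to cytochrome c, complex IV (cytochrome c oxidase) reduces oxygen, and complex V (ATP synthase) makes ATP from the proton gradient. Some complex IV subunits exist as a widely expressed isoform and a striated-muscle isoform, and muscle content of the whole system is known to rise with endurance training. A few core subunits are encoded by mitochondrial DNA (mtDNA), and dedicated assembly factors are needed to build each complex.

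Complex I contributed 45 of the 90 genes: 7 core subunits, 30 accessory subunits and the 8 assembly factors Ndufaf1 to Ndufaf8. Complex II contributed 4 genes, complex III 8, complex IV 16 and complex V 17, and 80 of the 90 encode structural subunits. Complex IV included Cox7a2l, a factor of respiratory supercomplexes, and Cox5b-ps, listed as protein-coding although named as a pseudogene. Cyc1, a complex III subunit, fell outside the name pattern and is given with the related genes. For 16 of the 90, another gene's exons on either strand covered over 20% of the exon bases, among them Ndufb11 (67.8%, Rbm10), Cox8b (51.5%, Psmd13), Ndufa3 (46.0%, Oscar and Tfpt), Ndufaf8 (37.6%, Tepsin) and Ndufb9 (28.7%). The strand setting of the counting is not given in the sources used here, so the values of these genes are uncertain to that extent, as are those of genes with near-identical pseudogene copies.

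Levels were compared between genes as RPM per kb of coding sequence. In resting control myotubes Atp5b, the catalytic beta subunit of ATP synthase, was highest at 1038 ± 184 RPM per kb (SD, n = 6). Cox6c followed at 716.2 ± 139 and Cox7c at 580.7 ± 151, both small complex IV subunits, and their ranges overlapped. The highest genes of the other complexes were Uqcrq of complex III at 513.6 ± 79.9, Ndufb7 of complex I at 298.6 ± 56.5 and Sdhd, the small membrane anchor of complex II, at 198.8 ± 21.2 RPM per kb. Per kb of coding sequence the catalytic Sdha stood lower, at 125.9 ± 6.4. Reads also come from untranslated regions, and the order depends on the length used. Divided by the length of the whole annotated transcript, Atp5b, Cox6c and Ndufb7 remained the highest of complexes V, IV and I, but Uqcr10 (137.7 ± 26.9 RPM per kb of transcript) replaced Uqcrq (82.2 ± 12.8) and Sdha (81.6 ± 4.15) stood above Sdhd (75.4 ± 8.05), with overlapping ranges.

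In complex I, the core subunits Ndufs1 and Ndufv2 stood at 44.0 ± 6.61 and 155.8 ± 19.7 RPM per kb. Its assembly factors lay between 6.303 ± 0.484 for Ndufaf6 and 60.1 ± 10.9 for Ndufaf8, with Ndufaf1 at 19.6 ± 0.895. The other low genes were Cox5b-ps at 6.053 ± 4.39, Atp5o at 9.187 ± 6.22, Ndufb2 at 13.0 ± 2.58 and the muscle isoform Cox7a1 at 22.0 ± 8.94. Other annotated gene models, 1 of them named Atp5po, each covered at most 8.3% of the exon bases of Atp5o. Whether Atp5po is a separate gene was not examined, and the second model named Atp5o held 0 counts. The level of Atp5o is therefore also uncertain. The 90 genes have short coding sequences, with a median of 436.5 bases against 1416 over all genes tested.

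**Figure D1:**
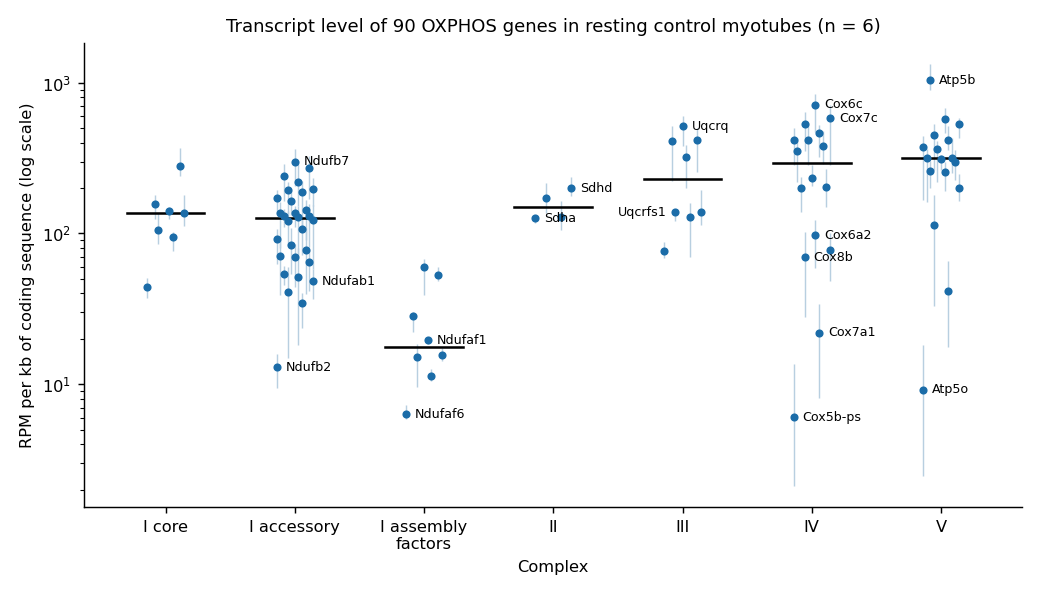
Level of each of the 90 OXPHOS genes in Rest control, in RPM per kb of coding sequence on a log axis, by complex and role; points are means, thin bars run from the lowest to the highest of 6 libraries and horizontal lines are medians over genes. The complex I assembly factors lie between 6.303 and 60.1 RPM per kb, and Atp5b is highest at 1038 RPM per kb.

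Libraries differed among themselves in OXPHOS level in a way that the groups do not describe. The sum of the 90 genes in Rest control ran from 7726 RPM in replicate 6 to 11360 RPM in replicate 4. In Tug1 KD at Rest it ran from 7262 RPM, again replicate 6, to 11370 RPM in replicate 3. Relative to the mean of its own group on the log2 scale, the median OXPHOS gene stood at -0.50 in Rest control replicate 6 and at -0.54 in Rest Tug1 KD replicate 6, with 89 of 90 genes below the mean in each. The third replicate at EPS 3h stood at 0.32 in both control and Tug1 KD, with 82 and 88 of 90 genes above the mean. These 4 had the largest median deviations of the 36 libraries, but others leaned one way too, such as Tug1 KD at Rest replicate 3 (0.26, 90 of 90 genes above) and replicate 4 (-0.24, 88 below) and EPS 3h control replicate 6 (-0.27, 86 below).

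Other groups of short transcripts moved with these libraries. In Rest control replicate 6 the median of other genes with short coding sequences was -0.18 and that of ribosomal protein genes -0.22. In Rest Tug1 KD replicate 6 these were -0.26 and -0.44. At EPS 3h replicate 3 they were 0.12 and 0.32 in control and 0.17 and 0.28 in Tug1 KD. The summed myotube markers were lowest of their group in Rest control replicate 6 (14500 RPM, median 17110). They were highest in EPS 3h replicate 3 in control (20870 RPM, median 16140) and in Tug1 KD (19460 RPM, median 16630). Rest Tug1 KD replicate 6, at 16470 RPM, was not the lowest of its group (15270 to 20840 RPM). The part of these libraries' general composition in the OXPHOS results was not tested, and the main counts after EPS are also given without these 4 libraries. They were chosen after seeing the data because OXPHOS genes were low or high in them, so leaving out low Rest and high EPS 3h libraries moves EPS against Rest towards falls by construction.

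**Figure D2:**
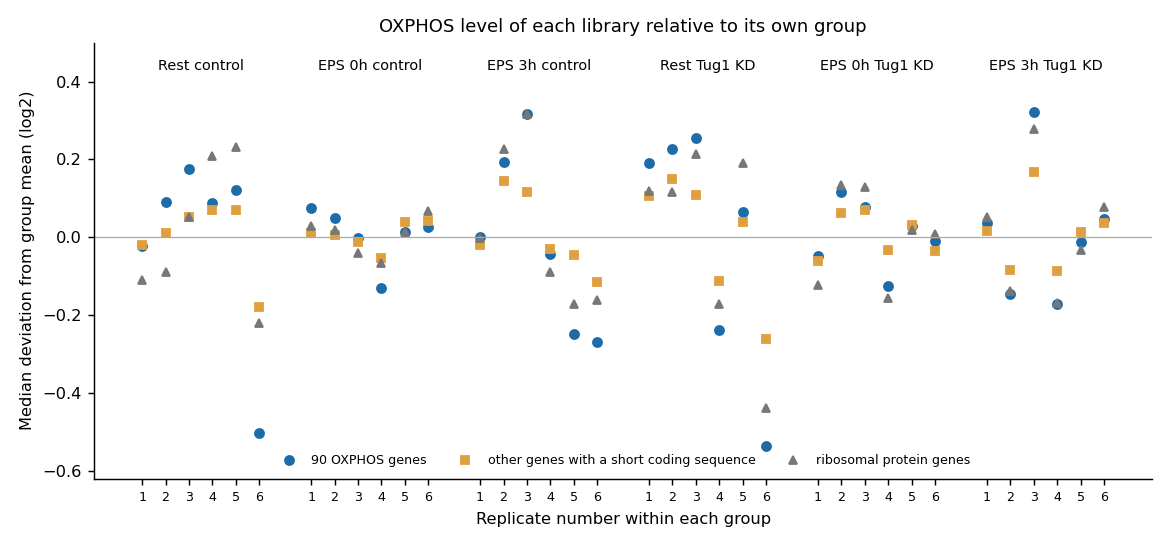
Median log2 deviation of each library from the mean of its own group, for the 90 OXPHOS genes (circles), other genes with a short coding sequence (squares) and ribosomal protein genes (triangles); the x axis gives replicate numbers within the 6 groups. Replicate 6 at Rest lies at -0.50 and -0.54 and replicate 3 at EPS 3h at 0.32 in both LNA conditions.

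Replicates 1 to 3 and 4 to 6 also stood apart. After centring within groups, the first principal component over all genes took 36.2% of the variance and separated these sets in all 6 groups. Of the 90 OXPHOS genes, 73 (81.1%) were lower on average in replicates 4 to 6, against 51.7% of all genes tested. For 11 genes (12.2%, against 4.36% of all genes) the sets did not overlap in any of the 6 groups. All 11 were lower in replicates 4 to 6, as were 247 of the 610 such genes among all tested, and they included Ndufb9, Uqcrb, Ndufs4, Cox6a2, Ndufab1 and Ndufs1. In Rest control, Ndufb9 measured 27.7, 40.5 and 43.1 RPM in replicates 1 to 3 and 21.9, 22.6 and 9.774 RPM in replicates 4 to 6. Within-set values are given below beside the main EPS results for that reason.

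Summed by complex, the genes kept their order in all 6 groups, with complex V highest and complex II lowest. Complex V summed to 4114 ± 584, 4131 ± 204 and 4260 ± 457 RPM over the Rest, EPS 0h and EPS 3h libraries with the control LNA (SD, n = 6), and to 4012 ± 597, 3735 ± 298 and 4037 ± 474 in Tug1 KD. Complex I summed to 2812 ± 355, 2716 ± 112 and 2797 ± 426 RPM in control and to 2906 ± 518, 2538 ± 171 and 2771 ± 385 in Tug1 KD. Complex IV summed to 1498 ± 256, 1530 ± 99.0 and 1576 ± 325 RPM in control, and complex III to 828.3 ± 117, 786.6 ± 51.8 and 796.7 ± 105. Complex II summed to 541.4 ± 46.8, 482.4 ± 18.4 and 511.9 ± 49.4 RPM. In every complex the groups overlapped between Rest and EPS 3h in control, and replicate 6 was the lowest library of both Rest groups in each sum.

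The first question was how OXPHOS transcripts respond directly after EPS. In control myotubes at EPS 0h, 1 of the 90 genes rose and 7 fell, whereas 20.5% of all genes tested rose and 18.4% fell (edgeR quasi-likelihood test, FDR under 0.05). The gene that rose was Ndufab1, the mitochondrial acyl carrier protein, which also serves as a complex I subunit. Those that fell were Atp5k, a small membrane subunit of ATP synthase, the complex I subunits Ndufc2 and Ndufb3, the complex I assembly factor Ndufaf7, Sdhd and Sdha of complex II, and Uqcrfs1, the Rieske iron-sulphur protein of complex III. No complex IV gene was called in this fit, while Cox4i1, Cox6c, Cox7a2 and Cox7a2l were called higher in replicates 1 to 3 alone, and Cox5b and Cox6b1 lower without the 4 libraries above. The median log2FC of the 90 genes was -0.05 and that of all genes -0.03, and 11 of the 90 had an unadjusted p under 0.05, against 46.8% of all genes. At the study's stricter EPS rule (FDR under 0.01 and a change beyond 1 log2 unit) 0 of the 90 were called, against 6.23% of all genes higher and 2.2% lower.

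Ndufab1 (GRCm39 chr7:121684626-121701393, minus strand) measured 17.2, 22.7 and 27.1 RPM at the lowest, median and highest Rest control library. At EPS 0h these were 24.8, 30.9 and 44.0 RPM. All 6 same-numbered pairs were higher after EPS, and Rest and EPS 0h did not overlap within either replicate set, although they did over all 6 libraries. The log2FC was 0.57 ± 0.18 (SE, adjusted p = 0.0106). Within replicates 1 to 3 it was 0.67 and within replicates 4 to 6 it was 0.41, both with adjusted p under the threshold (0.00127 and 0.00736).

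Atp5k (chr5:108581110-108582949, minus strand) had the largest fall, at -0.92 ± 0.33 (adjusted p = 0.025). Rest control ran from 7.012 RPM through a median of 23.2 to 38.4 RPM, and EPS 0h from 7.846 through 13.5 to 14.5 RPM. The groups overlapped because Rest replicate 6 was as low as the stimulated libraries. The call was lost without replicate 1, 2, 3 or 5, with limma-voom and without the filter on level. Within replicates 1 to 3 the log2FC was -1.53 (adjusted p = 0.0056) and within replicates 4 to 6 it was -0.09 (adjusted p = 0.857), and the difference between the sets was not tested.

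Ndufc2 went from 30.1, 44.6 and 51.0 RPM at Rest to 22.5, 29.8 and 40.6 RPM at EPS 0h (lowest, median, highest), a log2FC of -0.50 ± 0.20 (adjusted p = 0.0401). Here too the fall was -0.88 within replicates 1 to 3 and -0.21 within replicates 4 to 6, the latter not past the threshold, and the call was lost without the filter or any 1 replicate other than the sixth. Ndufb3 fell by 0.45 on the log2 scale (adjusted p = 0.0125), from a median of 42.7 to 29.2 RPM.

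Both complex II genes that fell did so modestly. Sdha, the flavoprotein, measured 233.6 to 262.3 RPM at Rest and 214.8 to 228.5 RPM at EPS 0h, so the groups did not overlap (log2FC -0.17 ± 0.07, adjusted p = 0.0325). Sdhd fell from a median of 94.0 to 69.3 RPM (log2FC -0.41 ± 0.13, adjusted p = 0.0116). Uqcrfs1 fell from a median of 115.2 to 94.8 RPM (log2FC -0.29 ± 0.10, adjusted p = 0.0225). Ndufaf7, a methyltransferase needed for complex I assembly, fell from 18.8 to 22.7 RPM at Rest to 16.9 to 18.7 RPM, again without overlap (adjusted p = 0.0483). Within replicates 1 to 3 and within replicates 4 to 6, respectively, the log2FC was -0.65 and -0.23 for Ndufb3, -0.56 and -0.29 for Sdhd, -0.48 and -0.12 for Uqcrfs1, -0.16 and -0.19 for Sdha, and -0.26 and -0.17 for Ndufaf7. Of these, Ndufb3, Sdhd and Uqcrfs1 passed the threshold in replicates 1 to 3 and none did in replicates 4 to 6. Over all replicates, the call was lost without replicate 2 for Ndufb3, without replicate 4 for Sdhd and without replicate 1, 2, 3 or 4 or the filter for Uqcrfs1. That of Ndufaf7 was lost without the filter or any 1 replicate other than the second. The Sdha call was lost at least without replicate 2, 4 or 5 and without the filter.

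A fit to replicates 1 to 3 alone called 11 rises and 11 falls among the 90 genes at this time (20.8% and 20.1% of all genes), and a fit to replicates 4 to 6 called 1 rise and 1 fall (16.1% and 13.7%). Ndufab1 was the gene that rose and Ndufaf1 the one that fell in replicates 4 to 6.

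The next comparison concerned recovery. At EPS 3h in control, 2 of the 90 genes rose and 4 fell, while 26.1% of all genes rose and 25.9% fell, and the OXPHOS median was -0.001 against -0.02 over all genes. Ndufab1 was again higher (24.5, 30.7 and 46.1 RPM, log2FC 0.57 ± 0.18, adjusted p = 0.00685), and Cox7a2l rose by 0.29 ± 0.12 (adjusted p = 0.0354). Ndufaf1, Ndufc2, Ndufaf7 and Atp5k fell. None passed the stricter EPS rule, by which 9.62% of all genes were higher and 4.72% lower. Complexes II and III had no called gene.

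Ndufaf1 (chr2:119482683-119493359, minus strand), which stabilises early membrane-arm intermediates of complex I, had the smallest relative spread of the 90 genes in Rest control, with 18.3 to 20.2 RPM over the 6 control libraries. It measured 13.8 to 18.5 RPM at EPS 0h and 10.3 to 15.7 RPM at EPS 3h. Rest and EPS 3h did not overlap (log2FC -0.68 ± 0.13, adjusted p = 3.36e-05; -0.60 within replicates 1 to 3 and -0.74 within replicates 4 to 6), and the change from EPS 0h to EPS 3h was -0.38 ± 0.13 (adjusted p = 0.0348). This was the single OXPHOS gene called between EPS 0h and EPS 3h in control, where 9.67% of all genes rose and 6.88% fell. In replicates 1 to 3 alone 4 OXPHOS genes rose and 0 fell between these times, against 8.66% and 5.12% of all genes, and in replicates 4 to 6 alone 0 rose and 0 fell, against 7.6% and 5.19%. The Ndufaf1 call between these times was thus lost in each set, and also without replicate 1, 3, 4 or 6 and without the 4 libraries. Its log2FC ran from -0.47 to -0.28 over 17 alternative settings.

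Cox7a2l measured 106.8, 108.4 and 148.4 RPM at Rest and 124.1, 139.3 and 198.9 RPM at EPS 3h (lowest, median, highest). Its log2FC was 0.64 within replicates 1 to 3 and -0.04 within replicates 4 to 6. It was 0.15 without replicate 2, and the call was lost without replicate 1, 2 or 3, without the 4 libraries, with other filters on level, with upper quartile scaling and with scaling by library size alone. Atp5pb, a peripheral stalk subunit of complex V, did not overlap between Rest (203.0 to 253.1 RPM) and EPS 3h (257.3 to 317.8 RPM) and was chosen for mention after its values were seen, since it did not pass the threshold.

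Several well-known subunits were not called at either time in control. Atp5a1, the alpha subunit of ATP synthase, measured 590.0, 651.7 and 851.0 RPM at Rest and 618.2, 668.1 and 791.9 RPM at EPS 3h (lowest, median, highest), a log2FC of -0.02 with a 95% interval of -0.21 to 0.16. Uqcrc2, a core protein of complex III, had a log2FC of 0.19 at EPS 3h with an interval of 0.0143 to 0.356 that was not past the adjusted threshold. Of the 3 genes for the c subunit, Atp5g1 had 0.09, Atp5g2 0.03 and Atp5g3 -0.12. Atp5k ran over 8.187, 10.7 and 26.4 RPM at EPS 3h (log2FC -0.83 ± 0.33, adjusted p = 0.0338, -1.12 within replicates 1 to 3 and -0.30 within 4 to 6, where it was not called). The Atp5k call was also lost without replicate 1, 2 or 5, with limma-voom and without the filter on level. Ndufc2 ran over 21.4, 29.9 and 37.8 RPM (log2FC -0.56 ± 0.20, adjusted p = 0.0163). Its call was lost in 2 of 17 alternative settings, over which the log2FC ran from -0.73 to -0.46.

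The replicate sets gave different pictures of every complex after recovery. The median log2FC at EPS 3h in control was positive in replicates 1 to 3 and negative in replicates 4 to 6 in each complex. It was 0.022 and -0.222 in complex II, and 0.269 and -0.124 in complex V. In a fit to replicates 1 to 3, 26 of the 90 genes rose at EPS 3h in control and 5 fell, with 25.3% of all genes higher and 23.6% lower. The 26 comprised 10 complex I genes, Sdhb, 2 complex III genes, 7 complex IV genes and 6 complex V genes. In a fit to replicates 4 to 6, 1 gene rose and 5 fell, with 25.1% of all genes higher and 23.6% lower. Cox6c, for example, went from 148.8, 165.5 and 179.7 RPM at Rest to 234.9, 296.4 and 193.9 RPM at EPS 3h in replicates 1 to 3. In replicates 4 to 6 it went from 186.2, 192.4 and 107.0 to 155.1, 137.1 and 127.9 RPM. The median log2FC over the 90 genes was 0.12 in the first set and -0.16 in the second, where all genes had -0.005 and -0.03. Whether the response differed between the sets was not tested.

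Without the 4 libraries named above 1 gene rose and 20 fell at EPS 0h in control, and 1 rose and 24 fell at EPS 3h. The background was then 20.6% higher and 18.2% lower at the first time, and 26.3% higher and 26.0% lower at the second. A scaling by library size alone moved the median of all genes by -0.075 and -0.168 at these times and gave 1 rise with 12 falls (16.6% and 24.9% of all genes) and 0 rises with 19 falls (19.1% and 39.5%). Same-numbered libraries deviated together in both comparisons, and with the replicate number as a block 2 genes rose and 9 fell at the first time (24.4% and 25.5% of all genes), and 6 rose and 6 fell at the second (29.6% and 31.6%).

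**Figure D3:**
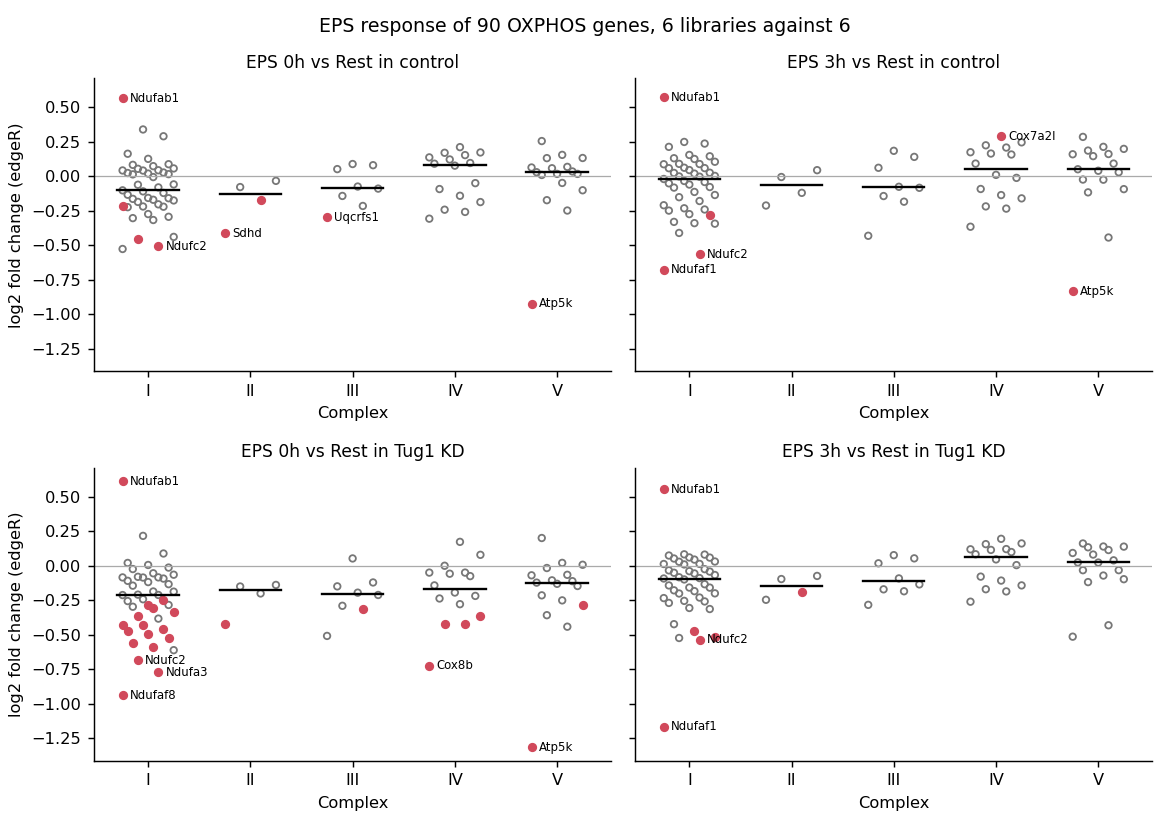
Log2 fold change (edgeR) of each of the 90 OXPHOS genes at EPS 0h and EPS 3h against Rest, in control and Tug1 KD myotubes, by complex; filled points passed FDR 0.05, open points did not, and lines are medians over genes. Most genes lie near 0 in control, Ndufab1 is highest in all 4 panels, and the complex I median is -0.21 at EPS 0h in Tug1 KD.

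In Tug1 KD myotubes more OXPHOS genes fell directly after EPS. At EPS 0h, 1 of the 90 rose and 24 fell, against 24.4% of all genes higher and 21.2% lower, and 11 of the 90 had a positive log2FC. The median was -0.20 over the 90 genes and -0.03 over all genes. The share that fell was 26.7%, near the background of falls, whereas the share that rose was 1.11%. By complex, 16 of 45 complex I genes fell (11 accessory subunits, 4 assembly factors and 1 core subunit), with 1 of 4 in complex II, 1 of 8 in complex III, 4 of 16 in complex IV and 2 of 17 in complex V.

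Atp5k again had the largest fall, from a median of 25.7 RPM (10.2 to 37.4) at Rest to 10.1 RPM (7.854 to 13.5), a log2FC of -1.32 ± 0.33 (adjusted p = 0.0016). It was the single OXPHOS gene past the stricter EPS rule at this time, with 8.15% of all genes higher and 2.5% lower by that rule. Ndufaf8, a complex I assembly factor, fell without overlap from 10.9 to 17.8 RPM at Rest to 5.637 to 9.907 RPM (log2FC -0.94 ± 0.23, adjusted p = 0.00104). Ndufa3, an accessory subunit, fell from a median of 26.0 to 13.9 RPM (log2FC -0.77 ± 0.22, adjusted p = 0.00468). All 3 were lower by more in replicates 1 to 3 (-2.08, -1.49 and -1.14) than in replicates 4 to 6 (-0.37, -0.42 and -0.34), where none passed the threshold, a difference that was not tested.

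The remaining falls were smaller. Ndufc2 fell by 0.69 on the log2 scale, Ndufs6 by 0.59, Ndufb8 by 0.56 and Ndufaf1 by 0.53. In complex IV the muscle isoform Cox8b fell by 0.73 (adjusted p = 0.0221), the widely expressed Cox6a1 by 0.37, Cox6b1 by 0.43 and Cox5b by 0.42. Of 17 alternative settings, the call was lost in 6 for Cox8b, 5 for Cox6a1 and 3 for Cox6b1. The log2FC ran over these settings from -0.89 to -0.40, from -0.56 to -0.17 and from -0.71 to -0.09, respectively. Atp5g3, which encodes the c subunit of the ATP synthase ring, fell by 0.29 (adjusted p = 0.0498), and Uqcrfs1 fell by 0.31. Neither fell in replicates 4 to 6 (log2FC 0.06 and 0.005, against -0.62 and -0.60 in replicates 1 to 3). The Atp5g3 call was also lost without replicate 1, 2, 3 or 5 and with limma-voom, and the Uqcrfs1 call in 3 further settings. Ndufab1 rose by 0.61 ± 0.18 (adjusted p = 0.00503), from 18.6 to 27.3 RPM at Rest to 23.9 to 43.6 RPM.

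More falls were called in replicates 1 to 3 than in replicates 4 to 6, a difference that was not tested. In a fit to replicates 1 to 3, 2 genes rose and 39 fell (27.7% and 26.5% of all genes), and in a fit to replicates 4 to 6, 1 rose and 1 fell (15.9% and 12.6% of all genes). Leaving out any 1 replicate number gave between 8 and 40 falls. The 40 came without replicate 6 (23.7% of all genes fell) and the 8 without replicate 1 (15.4%), while without replicate 2 there were 9 (15.8%) without replicate 3 or 5 there were 13 (17% and 18.4%), and without replicate 4 there were 23 (19%). Without the 4 libraries named above 1 gene rose and 41 fell (25.1% and 21.2% of all genes), and with the replicate number as a block 1 rose and 31 fell (27.9% and 29.0%).

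At EPS 3h in Tug1 KD, 1 gene rose and 5 fell, against 26.2% and 25.9% of all genes. Ndufaf1 fell from 15.1 to 23.1 RPM at Rest to 5.787 to 10.9 RPM without overlap (log2FC -1.17 ± 0.13, adjusted p = 2.02e-09) and alone passed the stricter EPS rule, by which 11.0% of all genes were higher and 4.49% lower. Ndufaf7 fell from 17.2 to 23.4 RPM to 13.1 to 16.1 RPM, also without overlap (log2FC -0.47 ± 0.09, adjusted p = 2.46e-05). Ndufaf4, a further complex I assembly factor, fell from a median of 25.9 to 18.3 RPM (log2FC -0.52 ± 0.15, adjusted p = 0.00328). In this fit 3 of the 8 complex I assembly factors, 1 of 30 accessory subunits (Ndufc2) and 0 of 7 core subunits fell, and the difference between roles was not tested. Without the 4 libraries these counts were 6, 15 and 2, in replicates 1 to 3 alone 4, 7 and 0, and in replicates 4 to 6 alone 3, 0 and 0. By set, the log2FC was -1.12 and -1.20 for Ndufaf1, -0.52 and -0.39 for Ndufaf7, and -0.86 and -0.14 for Ndufc2. Sdha fell by 0.19, and Ndufab1 rose by 0.55 ± 0.18 (adjusted p = 0.00893). The calls of Sdha and Ndufc2 were both lost without replicate 1 and in replicates 4 to 6 alone. That of Ndufc2 was lost in 3 of 17 alternative settings. Over the 90 genes there were 1 rise and 32 falls without the 4 libraries (26.4% and 25.1% of all genes), 1 and 17 in replicates 1 to 3 (27.3% and 25.9% of all genes), 1 and 3 in replicates 4 to 6 (22.0% of all genes in each direction), and 0 and 27 with scaling by library size alone, where 40.5% of all genes fell.

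**Figure D4:**
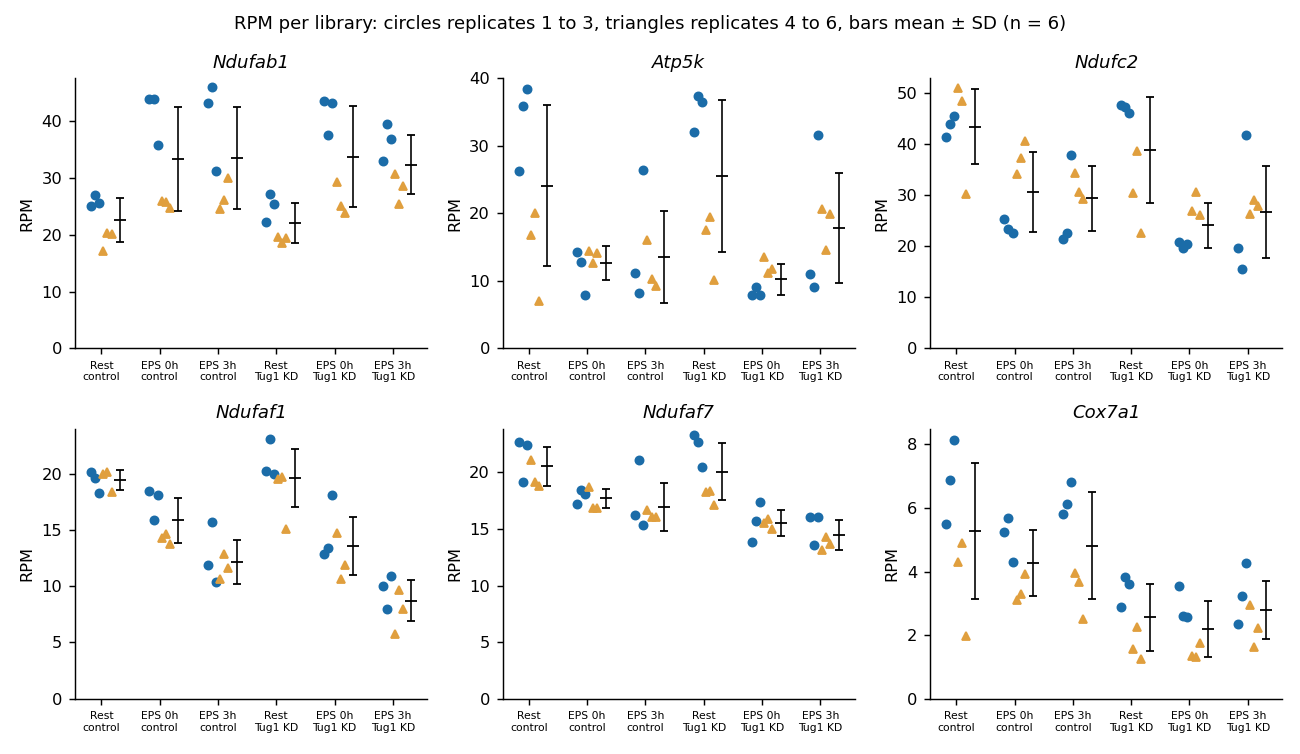
RPM of Ndufab1, Atp5k, Ndufc2, Ndufaf1, Ndufaf7 and Cox7a1 in every library of the 6 groups; circles are replicates 1 to 3, triangles replicates 4 to 6 and bars mean ± SD over 6 libraries. Ndufaf1 lies at 18.3 to 20.2 RPM at Rest and at 10.3 to 15.7 RPM at EPS 3h in control.

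Whether the EPS response differed between Tug1 KD and control was tested by the interaction of EPS and LNA. None of the 90 genes passed at EPS 0h or at EPS 3h (edgeR, 0.0% and 0.00715% of all genes), and 0 and 1 of the 90 had an unadjusted p under 0.05, against 2.32% and 3.07% of all genes. The estimates at EPS 0h were negative for all but 6 of the 90 genes, with a median of -0.16 against 0.01 over all genes, and at EPS 3h 21 were positive with a median of -0.05. Within replicates 1 to 3 the medians were -0.27 and -0.30, and within replicates 4 to 6 they were -0.02 and 0.26. The larger number of falls in Tug1 KD at EPS 0h is therefore not shown to differ from control for any gene.

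Direct comparison of Tug1 KD with control showed few OXPHOS differences. At Rest 0 of the 90 genes were higher and 1 lower in Tug1 KD, against 5.54% and 4.47% of all genes, and the OXPHOS median was 0.04. The sets gave opposite medians, 0.20 in replicates 1 to 3 with 82 of 90 genes positive and -0.13 in replicates 4 to 6 with 20 positive, a difference that was not tested. The gene was Cox7a1 (chr7:29883569-29885503, plus strand), the striated-muscle isoform of complex IV subunit 7a. It measured 1.955, 5.193 and 8.147 RPM with the control LNA and 1.251, 2.575 and 3.821 RPM after knockdown (lowest, median, highest). The log2FC was -1.04 ± 0.30 (adjusted p = 0.0186), and every same-numbered pair was lower, although the groups overlapped. The call was lost when replicate 3, 4 or 5 was left out and without the filter on level. The lowest library held 26 counts of Cox7a1.

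At EPS 0h, Tug1 KD was higher than control in 0 genes and lower in 2, against 8.25% and 6.07% of all genes. Cox7a1 was lower again (log2FC -0.98 ± 0.31, adjusted p = 0.0262). Cox8b (chr7:140477069-140480359, minus strand), the muscle isoform of subunit 8, ranged over 9.311 to 15.6 RPM in control libraries and 5.292 to 9.134 RPM in knockdown libraries, without overlap (log2FC -0.85 ± 0.26, adjusted p = 0.0224). Both calls were lost without the filter on level and when replicate 2, 4 or 5 was left out, the latter with log2FC of -0.95 to -0.92 for Cox7a1 and -0.86 to -0.83 for Cox8b. At EPS 3h, 0 were higher and 2 lower, against 6.38% and 5.11% of all genes, namely Ndufaf1 (log2FC -0.48 ± 0.13, adjusted p = 0.0121) and Ndufaf4 (log2FC -0.47 ± 0.15, adjusted p = 0.0306). Neither was called in replicates 1 to 3 alone (-0.39 for both), and the call was lost without replicate 2 or 4 for Ndufaf1 and without any 1 replicate other than the third for Ndufaf4. At that time Cox7a1 had 2.490 to 6.821 RPM in control libraries and 1.635 to 4.254 RPM in knockdown libraries and did not pass. With the replicate number as a block, 2 genes were higher and 3 lower directly after EPS (13.1% and 11.2% of all genes), and 1 was higher and 6 lower 3 h later (10.8% and 9.75%). Without the 4 libraries 0 were higher and 5 lower at EPS 0h (8.89% and 6.69%), and 0 higher and 3 lower at EPS 3h (6.01% and 4.42%), while at Rest 1 was higher and 1 lower (4.41% and 3.6%). Because these are bulk libraries, fewer cells expressing a muscle isoform and less RNA per cell cannot be told apart.

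Tissue isoforms were then compared as ratios within a library, which do not depend on the scaling. Of 7 isoform pairs, 3 had both members past the filter. Promoter sequences of the isoforms called in the Tug1 KD comparisons are shown with those of their widely expressed partners, since the members of each pair share a function and differ in tissue range. They are from RefSeq (GRCm38.p6), 250 bases before to 50 bases after the annotated start, 5′ to 3′ on the gene's strand, with motif matches in capitals.
Cox7a1, chr7:30183921-30184220, plus strand: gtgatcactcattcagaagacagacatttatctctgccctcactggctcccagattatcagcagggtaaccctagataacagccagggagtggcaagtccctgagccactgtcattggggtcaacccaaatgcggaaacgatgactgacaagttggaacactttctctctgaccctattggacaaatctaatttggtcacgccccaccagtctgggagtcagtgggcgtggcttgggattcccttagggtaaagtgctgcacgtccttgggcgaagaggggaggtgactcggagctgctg
Cox7a2, chr9:79759804-79760103, minus strand: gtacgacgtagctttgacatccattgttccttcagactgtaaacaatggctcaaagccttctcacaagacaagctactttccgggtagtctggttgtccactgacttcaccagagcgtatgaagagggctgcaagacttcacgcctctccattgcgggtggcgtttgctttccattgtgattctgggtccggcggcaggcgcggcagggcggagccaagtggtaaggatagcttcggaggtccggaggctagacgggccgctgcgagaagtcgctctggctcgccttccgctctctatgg
Cox8b, chr7:140900397-140900696, minus strand: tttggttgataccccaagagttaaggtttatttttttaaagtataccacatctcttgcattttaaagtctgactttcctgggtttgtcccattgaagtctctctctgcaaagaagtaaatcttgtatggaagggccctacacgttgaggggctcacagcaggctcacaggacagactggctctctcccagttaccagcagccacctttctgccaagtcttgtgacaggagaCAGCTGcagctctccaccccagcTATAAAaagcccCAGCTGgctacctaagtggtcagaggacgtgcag
Cox8a, chr19:7217567-7217866, minus strand: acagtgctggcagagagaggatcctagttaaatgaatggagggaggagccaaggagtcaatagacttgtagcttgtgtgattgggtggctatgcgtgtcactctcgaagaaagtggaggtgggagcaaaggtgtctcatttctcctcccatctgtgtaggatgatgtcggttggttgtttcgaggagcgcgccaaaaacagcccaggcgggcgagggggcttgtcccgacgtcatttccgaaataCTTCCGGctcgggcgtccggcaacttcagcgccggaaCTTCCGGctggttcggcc

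The capitals in Cox8b mark CAGCTG, the E-box bound by MyoD and myogenin, at positions -19 and 17 from the start. The capitals also mark TATAAA, the letters of the TATA box, at 5. That is past the annotated start, so this match is not shown to be a TATA box. In Cox8a they mark CTTCCGG, the ETS motif (CCGGAAG) on the other strand, at -5 and 33. The Cox7a1 and Cox7a2 windows held none of the 8 motifs searched on both strands, which says only that these letters are not in these windows.

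Shares of a pair were taken from counts per kb of coding sequence, and log2 ratios from counts. Cox7a1 made up 9.87 ± 3.98% of Cox7a1 plus Cox7a2 in Rest control and 4.67 ± 1.19% in Rest Tug1 KD (SD, n = 6). The log2 ratio ran from -4.69 to -3.08 with a median of -3.73 in control and from -5.33 to -4.43 with a median of -4.92 in Tug1 KD. The mean difference was -1.08 (exact two-sided permutation test p = 0.00866, adjusted over 15 isoform tests 0.13), with 6 of 6 pairs lower. After EPS the share was 7.41 ± 1.00% and 7.78 ± 1.33% in control and 4.08 ± 1.38% and 4.83 ± 1.34% in Tug1 KD. The EPS differences in control were -0.36 and -0.29 and in Tug1 KD -0.22 and 0.04, with exact permutation p of 0.236 or more. In control, within replicates 1 to 3 the differences were -0.80 and -0.72, and Rest (-3.40, -3.12 and -3.08) did not overlap EPS 0h (-3.95, -3.86 and -4.18), while within replicates 4 to 6 they were 0.08 and 0.15. With 3 libraries against 3 the exact test cannot go below 0.1, and the difference between the sets was not tested.

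Cox8b made up 24.8 ± 5.23% of the Cox8b and Cox8a pair in Rest control and 18.5 ± 4.34% in Rest Tug1 KD, the count of Cox8b being uncertain because of its overlap with Psmd13. The share rests on the coding length: per kb of the whole transcript, which is much longer than the coding sequence for Cox8b, it was 3.88 ± 1.02% and 2.7 ± 0.743%. The ratios of counts do not depend on the length. The difference in log2 ratio was -0.55 (exact permutation p = 0.0476, adjusted 0.238), again lower in 6 of 6 pairs. In Tug1 KD the share at EPS 0h was 14.9 ± 3.8%, a difference of -0.38 from Rest (exact p = 0.156) with 6 of 6 pairs lower. At EPS 3h in Tug1 KD it was 17.4 ± 2.34%, a difference of -0.09 (exact p = 0.68) with 4 of 6 pairs lower. In control the shares were 23.5 ± 3.60% at EPS 0h and 20.8 ± 2.80% at EPS 3h, with differences from Rest of -0.09 (exact p = 0.68) and -0.31 (exact p = 0.156) and 5 of 6 pairs lower at both times. Whether the ratio responded differently to EPS in Tug1 KD was not tested.

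The third pair held Cox6a2, the heart and skeletal muscle isoform of subunit 6a. Its share of the Cox6a2 and Cox6a1 pair was 20.4 ± 3.88%, 23.4 ± 4.48% and 25.9 ± 5.42% at Rest, EPS 0h and EPS 3h in control. In Tug1 KD it was 24.7 ± 3.47%, 29.4 ± 5.83% and 30.8 ± 4.47%. None of these differences passed the exact permutation test over libraries after adjustment, the smallest raw p being 0.0281 for EPS 3h in Tug1 KD (difference 0.45, adjusted p = 0.211). The replicate sets were far apart in this ratio, and between same-numbered libraries it was higher in 6 of 6 pairs in each of the 4 EPS comparisons and in Tug1 KD at Rest. The exact sign-flip test over pairs gave p = 0.0312 for each, the smallest that 6 pairs allow, and 0.0585 after adjustment over the 15 tests. Pairing by number is not supported for EPS 3h in Tug1 KD (lowest correlation of same-numbered libraries 0.0734) or for Tug1 KD at Rest (-0.0734). An exact permutation within replicates 1 to 3 and within 4 to 6, sets that were seen in the data, gave p = 0.005 for each of these 5 differences, the smallest it allows, and 0.0107 after adjustment. The same values held for Cox7a1/Cox7a2 and Cox8b/Cox8a in Tug1 KD at Rest, and Cox8b/Cox8a at EPS 0h in Tug1 KD had 0.015 and 0.0281. The calls on these ratios therefore depend on whether the sets are taken into account. These comparisons share their Rest libraries.

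**Figure D5:**
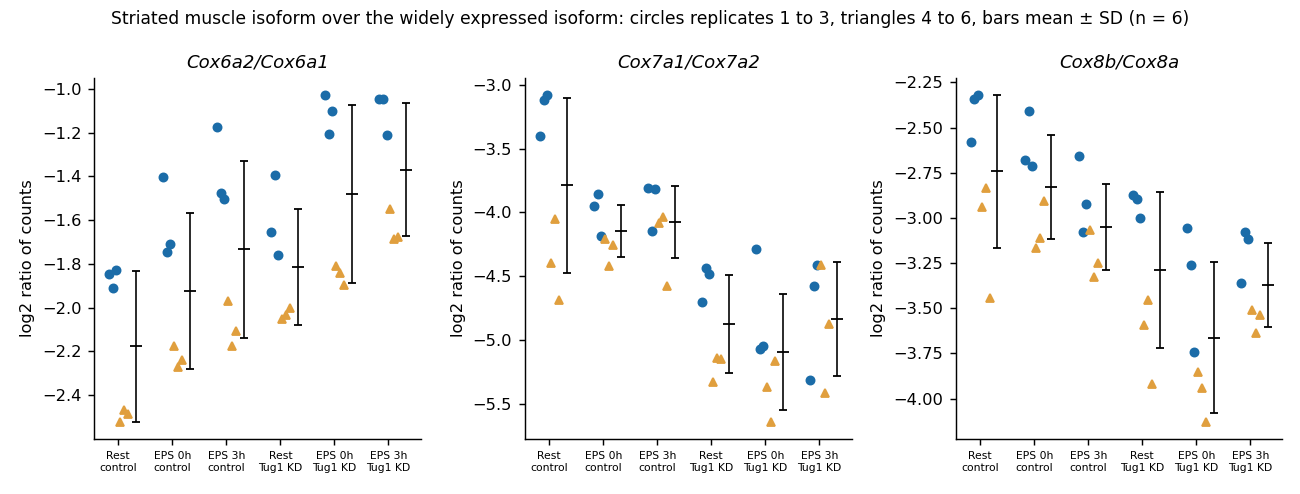
Log2 ratio of counts of the striated-muscle isoform to the widely expressed isoform in every library, for Cox6a2/Cox6a1, Cox7a1/Cox7a2 and Cox8b/Cox8a; circles are replicates 1 to 3, triangles replicates 4 to 6 and bars mean ± SD over 6 libraries. Cox7a1/Cox7a2 averages -3.79 in Rest control and -4.87 in Rest Tug1 KD, and Cox6a2/Cox6a1 is higher in replicates 1 to 3 than in replicates 4 to 6 in every group.

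The 8 motifs were searched in all RefSeq promoter windows of the organism, of which 80 belonged to 75 of the 90 genes. The NRF1 motif (GCGCA, 1 base of any kind, then GCGC), bound by nuclear respiratory factor 1, stood in 25.0% of the OXPHOS windows, in 9.29% of the windows of genes tested here and in 4.6% of all 32851 windows. The corresponding shares were 23.8%, 16.6% and 8.86% for the ETS motif bound by GABPA, 10.0%, 2.8% and 1.4% for the YY1 motif AAGATGGCG, and 2.5%, 0.283% and 0.423% for the ESRRA motif TCAAGGTCA. The E-box CAGCTG stood in 7.5% of OXPHOS windows against 15.9% and 16.3%, and the MEF2 motif (CTA and TAG with 4 bases of any kind between) in 2.5% against 3.24% and 3.69%. The TATA box letters TATAAA, counted anywhere in the window on either strand, stood in 10.0% against 7.56% and 13.6%. The heat shock element (GAA, TTC and GAA with 2 bases of any kind between each) stood in 0.0% against 0.521% and 0.603%. The OXPHOS windows had a median GC content of 58.8%, and all windows 52.7%. The windows of the gene that rose in all 4 EPS comparisons and of the gene with the largest falls at EPS 0h are shown for comparison (RefSeq, GRCm38.p6, 5′ to 3′).
Ndufab1, chr7:122101799-122102098, minus strand: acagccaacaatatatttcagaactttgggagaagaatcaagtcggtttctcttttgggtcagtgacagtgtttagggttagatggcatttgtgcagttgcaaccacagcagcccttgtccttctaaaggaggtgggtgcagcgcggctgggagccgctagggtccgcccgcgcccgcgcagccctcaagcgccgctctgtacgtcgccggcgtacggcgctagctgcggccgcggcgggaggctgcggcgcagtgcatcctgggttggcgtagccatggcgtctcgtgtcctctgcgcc
Atp5k, chr5:108434350-108434649, minus strand: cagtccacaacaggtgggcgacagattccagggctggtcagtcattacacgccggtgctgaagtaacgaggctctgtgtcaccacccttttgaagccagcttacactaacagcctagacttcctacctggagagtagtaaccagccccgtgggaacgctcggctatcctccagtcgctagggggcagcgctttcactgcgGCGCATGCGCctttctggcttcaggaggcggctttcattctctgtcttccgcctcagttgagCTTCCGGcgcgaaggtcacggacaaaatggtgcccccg

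In Atp5k the capitals mark an NRF1 motif at -50 and the ETS motif, on the other strand, at 13. The Ndufab1 window held none of the 8 motifs.

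Genes around the OXPHOS subunits were examined from lists chosen with earlier results of these data known. Of 36 assembly factors outside the 90 genes that passed the filter, 2 rose and 8 fell at EPS 0h in control, where 20.5% of all genes rose and 18.4% fell, and 3 rose and 15 fell at EPS 3h, where 26.1% rose and 25.9% fell. The falls at EPS 3h included Atpaf1, an ATP synthase chaperone (log2FC -0.62 ± 0.10, adjusted p = 6.13e-06), Coa7 of complex IV (-0.60 ± 0.10, adjusted p = 3.83e-06), Uqcc3 of complex III (-0.58 ± 0.14, adjusted p = 0.000846) and Taco1, a translational activator of complex IV (-0.50 ± 0.10, adjusted p = 6.95e-05). In Tug1 KD 2 rose and 16 fell at EPS 0h (24.4% and 21.2% of all genes), and 1 rose and 14 fell at EPS 3h (26.2% and 25.9%). The median log2FC was -0.18 in both. Tmem70, a complex V assembly factor, rose at EPS 3h in control (0.40 ± 0.09, adjusted p = 0.00039).

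Of the 13 mtDNA-encoded subunits, 10 passed the filter. None was called at EPS 0h in control, where their median log2FC was 0.16, and 3 fell at EPS 3h, where it was -0.46 and 25.9% of all genes fell. These were mt-Nd1 (-1.04 ± 0.25, adjusted p = 0.000625), mt-Nd5 (-0.82 ± 0.28, adjusted p = 0.0139) and mt-Cytb (-0.43 ± 0.18, adjusted p = 0.0465). In Tug1 KD 1 of them fell directly after EPS and 5 fell 3 h later (21.2% and 25.9% of all genes). Cyc1 had a log2FC of -0.31 ± 0.13 at EPS 0h in control (adjusted p = 0.0606) and fell by 0.45 in Tug1 KD (adjusted p = 0.00598), and cytochrome c (Cycs) was not called in any comparison.

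The listed transcriptional regulators known to act on nuclear OXPHOS or mitochondrial genes were Nrf1, Gabpa, Gabpb1, Esrra, Tfam, Yy1, Ppargc1b and Pprc1. Ppargc1a was not on the list. Of these 8, 3 rose and 0 fell at EPS 0h in control (20.5% and 18.4% of all genes), and 4 rose and 1 fell at EPS 3h (26.1% and 25.9%). In Tug1 KD 5 rose and 0 fell at EPS 0h (24.4% and 21.2%), and 4 rose and 1 fell at EPS 3h (26.2% and 25.9%). Against control, Tug1 KD had 1 higher and 0 lower at EPS 0h (8.25% and 6.07%) and again at EPS 3h (6.38% and 5.11%), and 0 called at Rest (5.54% and 4.47%). Gabpa, whose product binds the ETS motif above, rose in control by 0.63 ± 0.11 directly after EPS and by 1.17 ± 0.11 after 3 h (adjusted p = 2.6e-05 and 6.44e-11). Its partner Gabpb1 rose by 0.43 ± 0.11 and 0.69 ± 0.11, and Yy1 by 0.45 ± 0.07 and 0.57 ± 0.07. Tfam, the mtDNA transcription factor, rose by 0.38 ± 0.09 at EPS 3h (adjusted p = 0.000353), and Nrf1 fell by 0.25 ± 0.08 (adjusted p = 0.0117). Esrra had a log2FC of -0.58 ± 0.26 at EPS 0h (adjusted p = 0.0697). Of 12 myotube markers 0 were called after EPS in control, where 20.5% of all genes rose and 18.4% fell directly and 26.1% and 25.9% after 3 h (edgeR), while 2 and 1 of the markers had an unadjusted p under 0.05. In Tug1 KD 2 fell directly after EPS and 3 fell 3 h later, against 21.2% and 25.9% of all genes. Of 7 markers of cycling or undifferentiated myoblasts, 2 rose and 1 fell at EPS 0h in control (20.5% and 18.4% of all genes) and 3 rose and 1 fell at EPS 0h in Tug1 KD (24.4% and 21.2%), and 3 h later 1 rose and 2 fell with either LNA, where 26.1% and 26.2% of all genes rose and 25.9% fell in each. Of the 3 fibroblast or adipocyte markers past the filter, Pdgfra fell in all 4 EPS comparisons (log2FC -1.09 to -0.86) and was lower in Tug1 KD in all 3 states (-0.80 to -0.57), and the other 2 were not called. Against control, 0 myotube markers were called in Tug1 KD in any state, and of the 7 myoblast markers 0, 0 and 1 were lower at Rest, EPS 0h and EPS 3h (median log2FC -0.25, -0.23 and -0.22), where 4.47%, 6.07% and 5.11% of all genes were, with 4, 3 and 2 of them lower at an unadjusted p under 0.05. Their part in the OXPHOS falls was not tested.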

How the data were processed

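Polyadenylated RNA of 36 C2C12 myotube libraries was sequenced. The deposited values are raw counts per gene, not normalized; the submitters' processing notes name FastQC 0.11.7, fastp 0.14.1 and STAR 2.5 with GRCm39, and the counting tool and its strand setting are not given in the sources used here. The 36 single-library files were identical to the columns of the count table. Rows without a gene name (1492, 0.0327% of counts) were left out.

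Genes with at least 1 CPM in at least 12 libraries were fitted with edgeR 4.0.16 (R 4.3.3, TMM scaling, robust quasi-likelihood test, all 6 groups in 1 fit) and p-values were adjusted by Benjamini-Hochberg over 13995 genes, with a threshold of 0.05. RPM are CPM of the TMM-scaled library. Isoform ratios used log2 counts with a pseudocount of 0.5 and exact permutation tests. Alternatives were DESeq2 1.42.0, limma-voom (limma 3.58.1), other scalings and filters, blocks for replicate number or set, each replicate set alone, other pseudocounts and, added after seeing the data, each replicate or 4 libraries left out. Annotation was GENCODE vM39, and promoters came from RefSeq.

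Named genes were those of the isoform pairs with Cox7a2l and the c subunit genes, the 5 largest called rises and falls at EPS 0h and EPS 3h in control, the 3 largest in other comparisons, the highest gene of each complex, and Cox7a1, Atp5a1 and Uqcrc2; other genes named were chosen after their values were seen. The 90 genes and all lists were chosen with earlier results of these data known.

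Deviations of same-numbered libraries correlated above 0.1 in all 6 pairs for EPS 0h against Rest in control (0.219 to 0.455) and Tug1 KD (0.15 to 0.353). The same held for EPS 3h against Rest in control (0.117 to 0.49) and for Tug1 KD against control at EPS 0h (0.555 to 0.704) and EPS 3h (0.205 to 0.71). These were taken as paired, and the pairing comes from the data, not the labels. Same-numbered libraries always lie in the same replicate set, and differently numbered libraries were not correlated. The correlations therefore cannot tell a pairing by number from a difference between the sets.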

Additional observations from a re-analysis of the deposited data

Results flagged for a closer look

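Single libraries stood apart from the other 5 of their group in 11 of 234 groups of 6 tested by Dixon's criterion (4.7%). Chance would flag about 1 in 20 of independent groups, but genes of 1 library are not independent. Each value below is in RPM and was separated from its group by a gap to the nearest other library.

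The third replicate at EPS 3h was the highest for Atp5a1 in control (791.9, nearest 679.1), Cox6b1 in control (175.5, nearest 125.2) and in Tug1 KD (185.1, nearest 130.4), Ndufaf8 in control (17.05, nearest 10.41), Cox8b in Tug1 KD (14.26, nearest 10.0) and Ndufb3 in Tug1 KD (46.73, nearest 34.14). Replicate 6 of Rest control was the lowest for Cox7b (77.13, nearest 110.1), Ndufa4 (94.04, nearest 139.0) and Ndufaf8 (8.712, nearest 12.71). These 9 belong to 3 of the 4 libraries with the largest median deviation of OXPHOS genes. The remaining values were Atp5k in EPS 0h control replicate 3, the lowest at 7.846 (nearest 12.58), and Ndufaf7 in EPS 3h control replicate 2, the highest at 21.14 (nearest 16.67).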

How the results depend on the processing

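Counts of OXPHOS genes called moved more with the libraries used than with the test. The 2 kinds of setting are not alike, since DESeq2 and limma-voom kept all 36 libraries. Fits to 1 replicate set or without a replicate hold fewer libraries, which alone can change the number of calls. The 4 libraries were left out because of their OXPHOS level. Percentages in parentheses are the shares of all genes in the same fit and direction. With the replicate block, 2 rose at EPS 0h in control (24.4%), 6 at EPS 3h (29.6%), and 8 fell at EPS 3h in Tug1 KD (32.3%). Against control, Tug1 KD had 3 higher and 1 lower at Rest (9.1% and 8.12%), 2 higher and 3 lower at EPS 0h (13.1% and 11.2%), and 1 higher and 6 lower at EPS 3h (10.8% and 9.75%). With a block for the replicate set the EPS counts were 2 (23.9%), 6 (29.3%) and 6 (31.2%). Against control they were 3 higher and 1 lower (8.75% and 7.2%), 2 higher and 3 lower (12.3% and 10.4%), and 1 higher and 5 lower (9.83% and 8.82%). Both blocks took the isoform ratios of Cox6a2/Cox6a1 past an unadjusted 0.05 (0.254, 0.444, 0.334 and 0.363 at EPS 0h, EPS 3h, EPS 0h in Tug1 KD and Tug1 KD at Rest), as for Cox8b/Cox8a at EPS 0h in Tug1 KD (-0.376). The set block also took them past 0.05 after adjustment (0.0107, and 0.0281 for the last). The pairing behind the replicate block is not supported for Tug1 KD at Rest (lowest correlation -0.0734) or for EPS 3h against Rest in Tug1 KD (0.0734).

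In replicates 1 to 3, 11 rose and 11 fell at EPS 0h in control (20.8% and 20.1%), and 26 rose at EPS 3h (25.3%). From EPS 0h to 3h, 4 rose and 0 fell (8.66% and 5.12%). In Tug1 KD 2 rose and 39 fell at EPS 0h (27.7% and 26.5%) and 17 fell at EPS 3h (25.9%). Against control, Tug1 KD had 1 higher and 1 lower at Rest (3.29% and 2.9%), 1 higher and 2 lower at EPS 0h (4.19% and 2.53%), and 1 lower at EPS 3h (2.25%). In replicates 4 to 6, 1 control gene fell at EPS 0h (13.7%), 1 rose at EPS 3h (25.1%) and 0 fell between them (5.19%). For Tug1 KD in that set 1 fell at EPS 0h (12.6%) and 3 fell at EPS 3h (22.0%). Against control, Tug1 KD in that set had 3 lower at Rest (6.9%), 1 higher and 3 lower at EPS 0h (10.2% and 6.44%), and 2 lower at EPS 3h (5.08%). The log2FC turned in replicates 4 to 6 to 0.059 for Atp5g3 and 0.005 for Uqcrfs1 (EPS 0h, Tug1 KD) and -0.041 for Cox7a2l (EPS 3h, control). Without the 4 libraries, 20 fell at EPS 0h (18.2%), 1 rose and 24 fell at EPS 3h (26.3% and 26.0%) and 0 fell between them (5.97%) in control. In Tug1 KD 41 fell at EPS 0h and 32 at EPS 3h (21.2% and 25.1%). Against control, Tug1 KD had 1 higher and 1 lower at Rest (4.41% and 3.6%), 5 lower at EPS 0h (6.69%) and 3 lower at EPS 3h (4.42%).

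With library size only, 12 fell at EPS 0h, 0 rose and 19 fell at EPS 3h in control, 39 fell at EPS 0h (29.7%), 0 rose and 27 fell at EPS 3h in Tug1 KD, and 4 were lower in Tug1 KD at EPS 3h (5.85%). Upper quartile scaling, and a filter of 10 counts in 6 libraries, each gave 1 rise and 7 falls at EPS 3h in control (24.1% and 29.0%, and 26.8% and 26.1%) and 8 falls in Tug1 KD (29.1% and 26.3%). Without a filter, over 39727 genes, 2 fell in control at EPS 0h (6.2%), 1 rose at EPS 3h (17.4%), 14 fell at EPS 3h in Tug1 KD (13.1%), and 0 were lower in Tug1 KD at Rest and at EPS 0h (0.868% and 1.25%). The causes were not tested.

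Leaving out each replicate number in turn gave 1 to 2 rises and 2 to 9 falls at EPS 0h in control (9 without replicate 6, 2 without replicates 2 or 4), where 17.2% to 22.6% of all genes rose and 14.6% to 16.1% fell. It gave 1 to 3 rises and 2 to 7 falls at EPS 3h (23.5% to 26.8% and 22.1% to 25.2%), and 0 to 1 fall from EPS 0h to EPS 3h (4.34% to 6.56%). In Tug1 KD it gave 8 to 40 falls at EPS 0h (40 without replicate 6) and 3 to 14 at EPS 3h (14 without replicate 6), against 15.4% to 23.7% and 21.7% to 25.8%. Against control, Tug1 KD had 0 to 2 higher and 0 to 1 lower at Rest (3.85% to 5.2% and 2.82% to 3.62%), 0 to 3 lower at EPS 0h (3.62% to 4.92%) and 0 to 3 lower at EPS 3h (3.02% to 4.37%). The Cox7a1 call at Rest was lost without replicate 3, 4 or 5 and without a filter, with values between -1.03 and -0.99. The isoform differences ran from 0.216 to 0.281, 0.397 to 0.474, 0.27 to 0.379, 0.413 to 0.47 and 0.332 to 0.421 for Cox6a2/Cox6a1 (EPS 0h and EPS 3h in control, EPS 0h and EPS 3h in Tug1 KD, Tug1 KD at Rest), from -1.208 to -1.019 for Cox7a1/Cox7a2 and from -0.595 to -0.519 for Cox8b/Cox8a in Tug1 KD at Rest. DESeq2 and limma-voom changed the side of the threshold for 0 and 4 of the 39 single-gene values. The calls of Ndufab1 at EPS 0h (both LNAs), Ndufaf1 at EPS 3h (both LNAs) and Ndufaf1 at EPS 0h in Tug1 KD were kept in all 17 settings. So were those of Ndufaf4 and Ndufaf7 at EPS 3h in Tug1 KD. The lowest count in any library was 11, for Cox5b-ps, so that counting error weighs most on the low genes Cox5b-ps and Cox7a1.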
